A study of Mus musculus with 18 samples.

Results

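The oligoadenylate synthetase (OAS) family was followed through 8 genes, Oas1a, Oas1b, Oas1c, Oas1g, Oas2, Oas3, Oasl1 and Oasl2, chosen by gene name from the 21734 protein-coding genes of the count table. OAS enzymes bind double-stranded RNA and join ATP into short oligoadenylates, signal molecules of the antiviral response, and so limit virus growth. Transcription of the family is induced by type I interferon acting on its receptor. In macrophages LPS, a component of the bacterial outer membrane, reaches this pathway through TLR4 and secreted interferon beta.

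The RNA came from macrophages (BMDMs) that were grown from mouse bone marrow with M-CSF, of 3 genotypes in 2 states with 3 libraries each. All mice were of a 129/B6 mix and, by the study's culture methods, 6 to 7 months old, and 3 mice of each genotype gave the cultures. The study gives a younger age for the BMDMs of its mass spectrometry, although it split replicates between sequencing and mass spectrometry. WT mice carry the unaltered miR-146a, KO mice lack it in all cells, and 3F mice carry a miR-146a with its original seed and an exchanged 3′ region. Cultures received fresh medium without LPS (resting) or with LPS (1 ng/ml) and were kept 16 h, so every resting culture had the same change of medium. Resting and LPS libraries of a genotype share 3 replicate letters, given here as replicates 1 to 3, which were taken to name cultures of 1 mouse.

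Libraries held 4071084 to 19818043 counts, the lowest being resting 3F replicate 3. All 8 macrophage markers, Lyz2, Csf1r and Adgre1 among them, had counts in every group, and their summed level was 31300 to 86600 counts per 1000000 (CPM, on a library size scaled by TMM). Resting KO replicate 3 stood apart from the other resting libraries. On the first principal component of all genes it lay at -19.7, within the range from -70.6 to -17.4 of the libraries with LPS, whereas the other resting libraries lay between 28.2 and 62.4. Member results that rest on it are given with and without it. Resting 3F replicate 3 also stood apart, on the second component, at -50.3 against -4.46 to 33.1 for the other resting libraries. It had the lowest quality weight in limma (0.149), and S100a8 was at 44.0 CPM and S100a9 at 16.9 CPM in it, the highest S100a9 level of the resting libraries.

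The miRNA at issue and its altered form are shown first, because the genotypes differ in them. Capitals mark the seed, nucleotides 2 to 8. The miR-146a-5p and miR-146b-5p sequences are those of RefSeq (GRCm38.p6), and the 3F strand is the one the study designed as a synthetic RNA, without its closing deoxythymidines.
mmu-miR-146a-5p: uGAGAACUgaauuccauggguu
3F strand: uGAGAACUgaauaagugucc
mmu-miR-146b-5p: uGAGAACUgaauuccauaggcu
The 3F strand was identical to miR-146a-5p over positions 1 to 12, counted from the 5′ end, and differed at all 8 positions from 13 to 20. miR-146b-5p, encoded elsewhere, has the same seed.

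Matches to that seed were looked for in the longest annotated 3′ UTR of each gene. No 7-base or 8-base match was found in any of the 8 genes. Matches of 6 bases occurred once in Oas1a, once in Oas1b and in 2 places in Oas1c, shown here in capitals with 10 bases on either side.
Oas1a: cacattagcgGTTCTCtggctacaca
Oas1b: ccccaacagtGTTCTCtgggagacaa
Oas1c: ttccaacagtGTTCTCtgggagtcag
Oas1c: cacagaaactGTTCTCcaaccacaca
Oas1g, Oas2, Oas3, Oasl1 and Oasl2 held none of these matches in that 3′ UTR. A match of this length is a description and was not tested as a target site.

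The genes lie in a pair of clusters on mouse chromosome 5 (mm10). Oasl2 (114896936 to 114912234) and Oasl1 (114923240 to 114937915) stand together. The Oas1, Oas2 and Oas3 genes fill 191.3 kb from 120730333 to 120921652, where Oas1c on the minus strand and Oas1b on the plus strand begin 120 bases apart, back to back. Oas1b, the flavivirus resistance gene of mice, is annotated as a polymorphic pseudogene, since its reading frame differs between strains.

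Because the members moved together, their promoters were searched on both strands for the core of the interferon-stimulated response element, GAAA repeated after any 2 bases, and for the gamma-activated site, TTC followed after any 3 bases by GAA. RefSeq promoters (GRCm38.p6, 250 bases before to 50 after the start) were matched for 6 of the 8 genes, all but Oas1b and Oas2. The response element core was found in 4 of these 6, against 3.44% of all 32851 promoters, and the windows around it are shown with the match in capitals, each read on the gene's own strand.
Oas1a: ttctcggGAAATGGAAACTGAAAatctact
Oas1g: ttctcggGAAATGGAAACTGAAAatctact
Oas1c: atgggacTTTCAGTTTCCATTTCccgggaa
Oas3: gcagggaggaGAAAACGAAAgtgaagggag
The Oas1a window lies at chr5:120907523-120907552, that of Oas1g at chr5:120887609-120887638, that of Oas1c at chr5:120812606-120812635 and that of Oas3 at chr5:120777715-120777744, all on the minus strand. Oas1a and Oas1g carried the same 30 bases, with 2 overlapping matches. In Oas1c the matches were on the opposite strand, between its start and that of Oas1b. As printed, the Oas1c window begins with the first annotated base of Oas1b. Read on that opposite strand, the Oas1c matches have the same letters as those of Oas1a and Oas1g. The matches of Oas1a, Oas1g and Oas1c are therefore not separate finds to set against the share of all promoters. The gamma-activated site was found in Oas1a, where it did not overlap the other motif, against 8.3% of all promoters. The windows of Oasl1 and Oasl2 held neither set of letters. A match says only that these letters are in the window.

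Near-identical copies limit how well single Oas1 genes can be counted. Of the 50-base windows along the Oas1a transcript 57.6% also occurred in Oas1b or Oas1g, and 54.7% of those of Oas1g occurred in Oas1a or Oas1b. For Oas1c the share was 16.3%, with Oas1d, Oas1e, Oas1f, Oas1h and Gm43069, for Oas1b it was 3.41% and for Oas3 0.792%, while Oas2, Oasl1 and Oasl2 shared none. The authors counted reads by strand and with a mapping quality of at least 50, so reads that fit several copies equally well should be missing. The levels of Oas1a and Oas1g are uncertain for this reason.

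Compared per length, Oas1a had the highest mean level of the 8 in every group. In resting WT cells the mean levels in CPM per kb of exon were 10.8 for Oas1a, 4.84 for Oas3, 3.46 for Oasl2 and 1.99 for Oas1c, and between 0.621 and 1.06 for Oas2, Oas1g, Oas1b and Oasl1. In resting WT libraries Oas1a did not overlap Oas3, and Oas1c did not overlap Oas2, whereas every other pair of neighbours in this order overlapped. With LPS the WT order became Oas1a (106), Oasl2 (76.7), Oas3 (57.3), Oasl1 (37.8), Oas1g (18.6), Oas2 (14.2), Oas1b (7.58) and Oas1c (6.31), in CPM per kb, and each neighbour overlapped the next. KO cells with LPS had the same order of means, from 162 for Oas1a to 7.39 for Oas1c, and there no neighbours overlapped. The sum of the 8 genes was 24.6 ± 7.58 CPM per kb (SD, n = 3) in resting WT cells and 324 ± 124 with LPS. A bulk level cannot tell more cells that hold a transcript from more transcript in each cell.

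**Figure D1:**
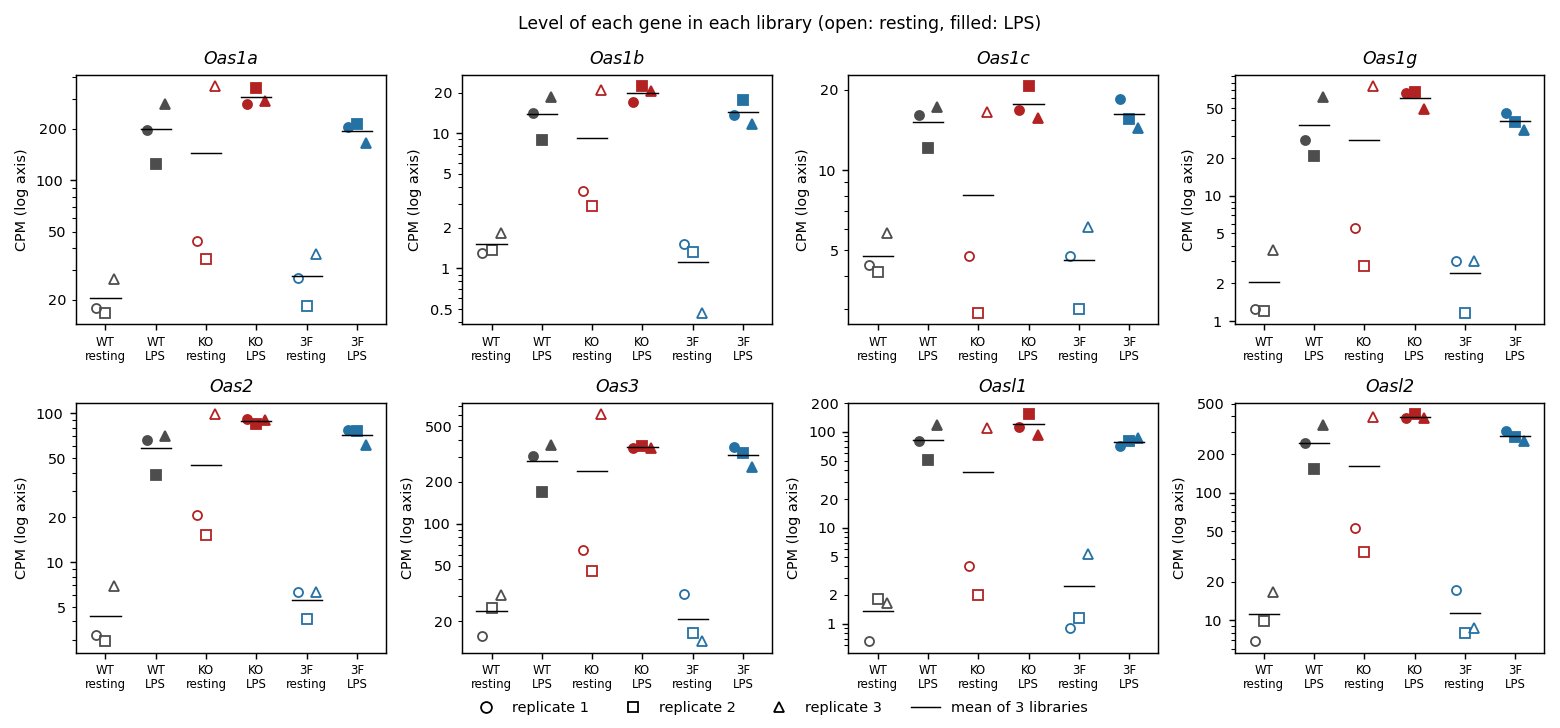
Level of each gene in CPM (y axis, logarithmic) in each of 18 libraries, by genotype and state on the x axis; symbols mark the replicate, open symbols are resting and filled symbols LPS, and the bar is the mean of 3 libraries. All 8 members rose with LPS in WT and 3F, and resting KO replicate 3 (open red triangle) lies among or above the LPS libraries.

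The make-up of the family transcript pool shifted with LPS. In WT cells Oasl1 went from 2.54% ± 1.14 to 11.6% ± 0.402 of the summed CPM per kb (SD, n = 3) and Oasl2 from 13.6% ± 2.28 to 23.7% ± 0.154. Oas1c went from 8.30% ± 1.22 to 2.06% ± 0.449 and Oas1a from 44.3% ± 4.67 to 32.6% ± 0.446. The resting and LPS libraries of WT did not overlap in any of these 4 shares, which are given as a description without a test. In resting KO cells Oas1c took 2.98%, 2.57% and 1.21% of the pool in replicates 1, 2 and 3, all below the lowest resting WT library at 7.27%. Oasl2 took 24.7%, 22.6% and 21.6% there, all above the highest resting WT library at 15.6%. The Oasl1 share was 2.74% and 1.91% in resting KO replicates 1 and 2, inside the resting WT range from 1.57% to 3.80%, and 8.72% in replicate 3.

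**Figure D2:**
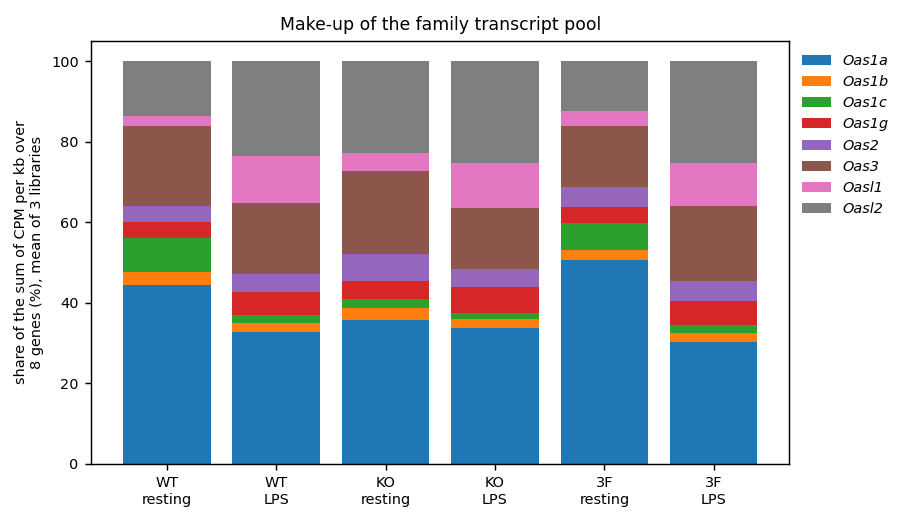
Share of each of the 8 genes in their summed CPM per kb (y axis, %, mean of 3 libraries) for the 6 groups on the x axis. With LPS the Oasl1 and Oasl2 segments are wider and the Oas1a and Oas1c segments narrower than in resting WT cells, and the resting KO bar is the mean of libraries that differ in level.

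The first comparison asked what LPS did to the family in WT macrophages. All 8 members rose, and they did so in a setting where 16.3% of the 11357 genes tested rose. Calls were made at 0.05 on the adjusted p of edgeR's quasi-likelihood test with Benjamini-Hochberg adjustment over all genes tested, fitted on all 18 libraries. The median log2 fold change of the 8 was 3.67, against 0.02 over all genes tested, and for each member every LPS library lay above every resting library, as did those of 25.9% of all genes. The summed neutrophil markers also moved with LPS in WT, from 13.2 to 21.3 CPM resting to 30.1 to 38.3 CPM, with Ly6g and Elane at 3 counts or fewer in every WT library, and their part was not tested.

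Oas1a, the most abundant of the small OAS1 synthetases, was at 17.8, 16.7 and 26.5 CPM in resting WT replicates 1, 2 and 3 and at 196, 124 and 278 CPM with LPS. The groups did not overlap, and Oas1a rose by a log2 fold change of 3.30 ± 0.67 (SE), 9.84-fold, with an adjusted p of 0.00163 from edgeR. Oas1g, its near-identical neighbour, went from 1.25, 1.20 and 3.67 CPM to 28.1, 20.6 and 61.9 CPM. This was a log2 fold change of 4.24 ± 0.97 (adjusted p = 0.00399, edgeR). Oas1b changed from 1.31, 1.36 and 1.84 CPM to 14.2, 8.94 and 18.5 CPM, a log2 fold change of 3.22 ± 0.61. The smallest response in the family was that of Oas1c, at 4.40, 4.14 and 5.80 CPM resting and 16.1, 12.1 and 17.3 CPM with LPS. Its log2 fold change was 1.67 ± 0.43, or 3.18-fold, with an adjusted p of 0.00834 (edgeR).

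Oas2 and Oas3 encode the larger synthetases, built of repeated OAS domains. Oas2 rose from 3.22, 2.94 and 6.87 CPM to 65.8, 38.6 and 70.2 CPM, a log2 fold change of 3.78 ± 0.58 and the lowest adjusted p of the family, 0.000163 (edgeR). Oas3 was at 15.6, 24.8 and 30.8 CPM resting and at 305, 169 and 367 CPM with LPS, a log2 fold change of 3.57 ± 0.74. In neither gene did the resting and LPS libraries come near each other.

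The OAS-like genes gave the largest responses. Oasl1, whose protein is known to hold back translation of Irf7 mRNA, was at 0.657, 1.81 and 1.64 CPM in resting WT libraries and at 80.4, 50.6 and 119 CPM with LPS. The log2 fold change was 5.96 ± 1.20, 62.1-fold, with an adjusted p of 0.00153 (edgeR). The resting level rests on few reads, since the lowest resting WT value of the 8 genes was 10 counts. Oasl2, an OAS protein with ubiquitin-like domains, rose from 6.83, 9.86 and 16.7 CPM to 246, 154 and 341 CPM, a log2 fold change of 4.49 ± 0.74.

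The 3F cells gave the LPS response in the same 8 genes, where 17.2% of all genes rose. Log2 fold changes ran from 1.89 ± 0.45 for Oas1c to 5.53 ± 1.20 for Oasl1, with a median of 3.80, and the adjusted p from 0.000179 to 0.00469 (edgeR). Oas1a was at 26.8, 18.3 and 37.0 CPM in resting 3F libraries and 204, 213 and 166 CPM with LPS. Oasl2 was at 17.3, 8.00 and 8.66 CPM resting and 303, 273 and 252 CPM with LPS. The resting and LPS libraries of 3F did not overlap in any member, nor did they, in the same direction, in 25.1% of all genes. Oas1b had only 0.468 CPM, 2 counts, in resting 3F replicate 3, the shallowest library, and without that library all 8 were called at 2.02 to 6.21.

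In KO cells 1 of the 8 members was called higher with LPS, Oas1c, against 14.3% of all genes. Its log2 fold change was 1.20 ± 0.42 with an adjusted p of 0.043 (edgeR), from 4.76, 2.91 and 16.5 CPM resting to 16.8, 20.7 and 15.7 CPM, and the groups overlapped. This call was lost without any single one of the KO libraries other than resting replicate 3, the adjusted p then lying between 0.063 and 0.18, and also when only the KO groups were fitted. The other 7 had log2 fold changes from 0.56 ± 0.66 for Oas3 to 1.68 ± 0.89 for Oasl1, with adjusted p from 0.0946 to 0.573, and 2 of the 8 had an unadjusted p under 0.05, against 37.8% of all genes. Resting and LPS libraries of KO overlapped in every member, whereas in 23.8% of all genes every LPS library was the higher. With the culture as a replicate block 6 members were called, all but Oas1g and Oas3, at a median of 1.81 in place of 1.18. Without resting KO replicate 3 all 8 members were called higher, with log2 fold changes from 2.19 to 5.28 and a median of 2.82. That fit called 4040 of all genes in either direction, against 3059 with all libraries. With library quality weights in limma, resting KO replicate 3 weighed 0.168 against 1.54 and 2.03 for the other resting KO libraries. All 8 were also called there, as were 6073 of all genes.

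**Figure D3:**
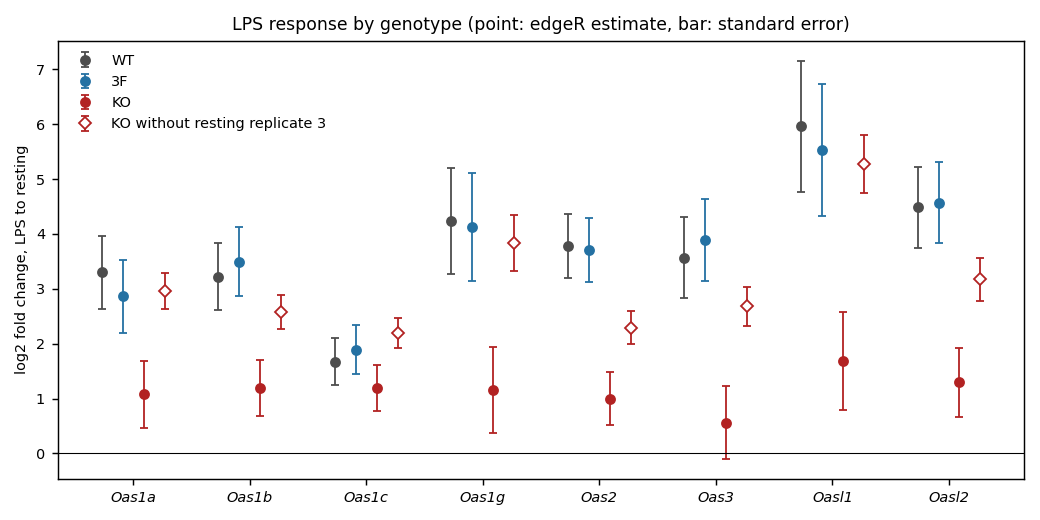
Log2 fold change from resting to LPS (y axis) for the 8 genes on the x axis, as edgeR estimates with standard errors, in WT, 3F and KO and in KO with resting replicate 3 left out. KO lies below WT and 3F with all libraries, and without that library its estimates run from 2.19 for Oas1c to 5.28 for Oasl1.

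In resting KO replicate 3 the family was at or above the level that LPS produced in WT. Oas3 was at 609 CPM there against 64.2 and 45.8 CPM in replicates 1 and 2, and Oas1a at 357 CPM against 43.8 and 34.6 CPM. Oasl1 was at 109 CPM against 4.02 and 1.99 CPM. Across the 8 genes replicate 3 was 4.31 times (Oas1c) to 36.2 times (Oasl1) the mean of replicates 1 and 2, and 109% to 217% of the mean of WT with LPS. For Oas1a, Oas1g, Oas2 and Oas3 it exceeded every LPS-treated library of any genotype. Interferon beta (Ifnb1), the interferon that macrophages release on LPS, had 0, 2 and 6 counts in resting KO replicates 1, 2 and 3, 0 in each resting WT library and 10, 5 and 11 in WT with LPS. Its part in these levels was not tested.

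Markers of other cells in that library were also read. The summed level of 6 neutrophil markers was 52.4 CPM in resting KO replicate 3, 13.8 and 24.2 CPM in replicates 1 and 2 and 13.2 to 21.3 CPM in resting WT. S100a8 made up 48.3 CPM of it, while Ly6g, Elane and Mpo had 0 counts there and S100a9 was at 2.47 CPM, below its resting WT range from 4.82 to 7.16 CPM. The 4 markers of plasmacytoid dendritic cells, a source of interferon in marrow, summed to 125 CPM against 122 and 123 CPM in the other resting KO libraries and 76.3 to 113 CPM in resting WT, and Siglech and Klk1 were at 3 counts or fewer in every resting KO and WT library. Markers of conventional dendritic, T, B, NK, stromal and erythroid cells each summed to at most 0.68 CPM in the 3 resting KO libraries. The summed macrophage markers were 61700 CPM there, 59600 and 59700 CPM in replicates 1 and 2 and 31300 to 47200 CPM in resting WT, and their part in the difference between genotypes was not tested.

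The comparison of resting KO and WT cells asked whether the family differs without miR-146a before any stimulus. Of the 8 members 7 were called higher in KO, where 5.12% of all genes were, and the median log2 fold change of the 8 was 3.36 against 0.02 over all genes. How much higher they were depended on the libraries. Log2 fold changes of the 7 ran from 2.56 ± 0.62 for Oas1b to 4.80 ± 1.18 for Oasl1 with all libraries. Without resting KO replicate 3 the median fell to 1.18, and 3 members, Oas2, Oas3 and Oasl2, were called.

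Oas2 and Oasl2 were the members that were called without any single library. Oas2 was at 20.9, 15.2 and 98.5 CPM in resting KO and at 3.22, 2.94 and 6.87 CPM in resting WT. The KO libraries all lay above the WT libraries, with a log2 fold change of 3.38 ± 0.57 (adjusted p = 0.00271, edgeR) and of 2.1 ± 0.31 without replicate 3 (adjusted p = 0.00153, edgeR). Oasl2 was at 53.0, 34.3 and 395 CPM in resting KO against 6.83, 9.86 and 16.7 CPM. Its log2 fold change was 3.86 ± 0.72 (adjusted p = 0.00423, edgeR), and 1.99 ± 0.37 without replicate 3 (adjusted p = 0.0052, edgeR). Replicates 1 and 2 of resting KO alone averaged 4.16 times the resting WT mean for Oas2 and 3.91 times for Oasl2.

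For Oas1a, Oas1b, Oas3 and Oasl1 the KO libraries also all lay above those of WT, so that 6 of 8 members did, against 13.7% of all genes. Their replicates 1 and 2 averaged 1.93 to 2.32 times the resting WT mean. Oas3 had a log2 fold change of 3.34 ± 0.73 (adjusted p = 0.00975, edgeR), which was 1.22 ± 0.34 without replicate 3 (adjusted p = 0.0382). Oas1g, at 5.56, 2.75 and 75.4 CPM in KO against 1.25, 1.20 and 3.67 CPM, was called at 3.80 ± 0.98, yet its groups overlapped and the value was 1.13 ± 0.58 without replicate 3 (adjusted p = 0.283, edgeR). Oas1c was the exception, at 4.76, 2.91 and 16.5 CPM in KO against 4.40, 4.14 and 5.80 CPM. Its log2 fold change was 0.70 ± 0.44 (adjusted p = 0.377, edgeR), with a 95% interval from -0.24 to 1.65, and its sign turned to -0.29 without replicate 3. Calls also fell to 2 members without resting WT replicate 1 or replicate 2, while the median moved only to 3.15 and 3.27. Without resting WT replicate 2, 392 of all genes were called, against 1067 with all libraries. With the 6 resting KO and WT libraries fitted alone, 0 members (median 3.33) and 396 of all genes were called.

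**Figure D4:**
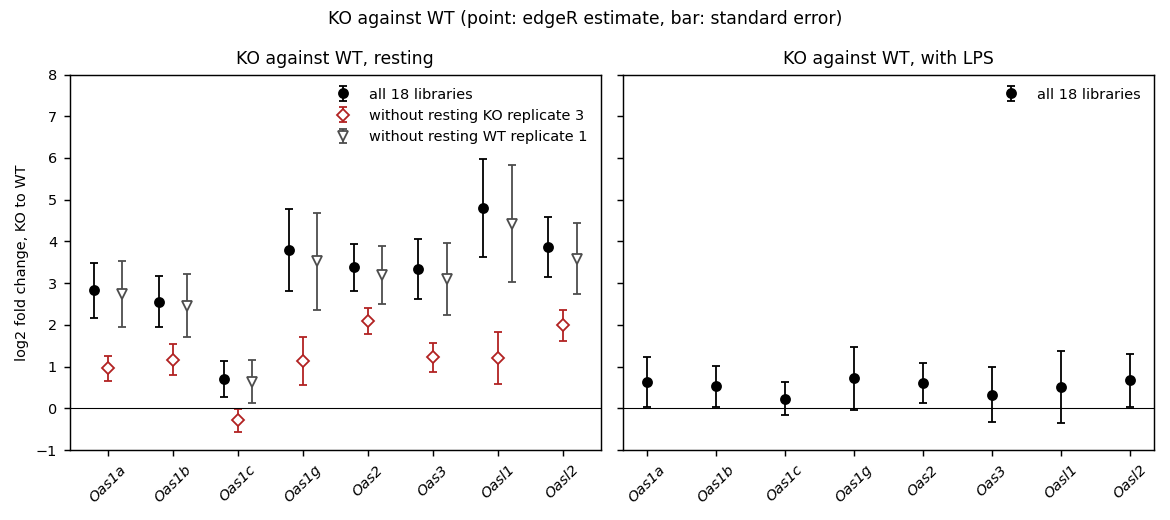
Log2 fold change from WT to KO (y axis) for the 8 genes on the x axis, as edgeR estimates with standard errors, in resting cells (left, with all libraries and without 1 of 2 libraries) and with LPS (right). Leaving out resting KO replicate 3 lowers all 8 resting estimates, whereas leaving out resting WT replicate 1 leaves them near their size with wider bars.

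With LPS no member was called between KO and WT, against 4.79% of all genes called in either direction. None had an unadjusted p under 0.05, as 18% of all genes did, DESeq2 called 0 and limma with library quality weights 1. All 8 estimates were positive, from 0.23 ± 0.40 for Oas1c to 0.72 ± 0.76 for Oas1g on the log2 scale, and the 95% intervals together spanned -1.30 to 2.35. The spread was estimated over all 18 libraries, so resting KO replicate 3, in neither group, also enters these tests and intervals. With the compared groups fitted alone, where it does not enter, 0 members were called at a median of 0.55. Oas1a was at 279, 347 and 291 CPM in KO with LPS against 196, 124 and 278 CPM in WT. The KO libraries lay above the WT libraries in 3 members, Oas1a, Oas2 and Oasl2, as in 16.9% of all genes. The KO libraries were closer to each other than those of WT, Oas3 being at 348, 358 and 351 CPM against 305, 169 and 367 CPM. With LPS the summed macrophage markers were 69500 to 86600 CPM in KO and 44200 to 58400 CPM in WT. The summed neutrophil markers were 37.9 to 62.3 CPM in KO and 30.1 to 38.3 CPM in WT. The part of these markers was not tested.

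Whether the LPS response itself differed between KO and WT was asked with an interaction. No member was called, against 0.00881% of all genes, although 7 of 8 had an unadjusted p under 0.05, all negative, against 4.93% of all genes, and DESeq2 called 1, Oas2. The estimates ran from -4.28 ± 1.47 for Oasl1 to -0.47 ± 0.59 for Oas1c on the log2 scale, with a median of -2.89 and adjusted p from 0.507 to 1 (edgeR), and the median was -1.82 with the culture as a replicate block, again without a call. Without resting KO replicate 3 the median was -0.66 and the estimates ran from -1.5 to 0.52.

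The 3F allele was made to ask what the 3′ region of miR-146a contributes beyond the seed. No member was called between 3F and WT in resting cells or with LPS, where 0% and 0.00881% of all genes were called. In resting 3F the summed neutrophil markers were 12.4 to 65.8 CPM, and their part was not tested. Without resting 3F replicate 3 the resting log2 fold changes ran from -0.36 to 0.32, and none was called. None had an unadjusted p under 0.05 in either state, as 4.9% and 0.933% of all genes did, and DESeq2 and limma with weights called 0 in both. In resting cells the log2 fold changes lay between -0.21 ± 0.74 for Oas1b and 0.40 ± 0.64 for Oas1a, and with LPS between -0.07 ± 0.86 for Oasl1 and 0.30 ± 0.48 for Oas2. The 3F and WT libraries overlapped in every member in both states. Of all genes 3.28% resting and 3.98% with LPS had every 3F library above WT, and 3.84% and 3.89% had every one below. The 95% intervals of the 8 resting differences together spanned -2.83 to 3.54, both ends from Oasl1, and that of Oas1g ran from -2.23 to 2.65. Differences of several-fold in the low resting levels of these genes could thus not be excluded. The spread was estimated over all 18 libraries, so resting KO replicate 3, in neither group, also enters the widths of these intervals. How much it widened them was not tested. The narrowest resting interval was that of Oas1c, from -1.12 to 0.87. With LPS the 8 intervals spanned -1.90 to 1.76, and the narrowest was that of Oas1c, from -0.75 to 0.94. The interaction of 3F with LPS gave no call either, with 0 members at an unadjusted p under 0.05, against 1.79% of all genes, and 0 by DESeq2 or limma, and 0% of all genes called.

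KO cells were also compared with 3F cells, which keep the seed. This comparison shares its KO libraries with the comparison to WT. In resting cells 7 of 8 members were called higher in KO, all but Oas1c, against 6.79% of all genes, with log2 fold changes of the 7 from 2.43 ± 0.65 for Oas1a to 4.44 ± 1.20 for Oasl1. KO libraries lay above all 3F libraries in 4 members, Oas1b, Oas2, Oas3 and Oasl2, as in 15.8% of all genes. Without resting KO replicate 3 these same 4 were called and the median fell from 3.26 to 1.14. Without resting 3F replicate 2, 4 were called at a median of 2.99. Without resting 3F replicate 3, 5 were called at a median of 3.18, where 735 of all genes were called in place of 1464. With the 2 groups fitted alone 0 members were called at a median of 3.25, where only 16 of all genes were called. With LPS none was called, against 3.88% of all genes, and none had an unadjusted p under 0.05, against 16.9% (DESeq2 0, limma with weights 0). Estimates ran from 0.13 ± 0.40 for Oas1c to 0.65 ± 0.60 for Oas1a on the log2 scale, and the KO libraries lay above the 3F libraries in 5 members, as in 19.4% of all genes. With the LPS groups of KO and 3F fitted alone, 4 members were called higher in KO, Oas1a, Oas1g, Oasl1 and Oasl2. The median was then 0.45, against 0.49 with all libraries. Resting KO replicate 3 enters the estimate of spread in the fit of all libraries and not in that one.

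Other genes of the pathway were taken from lists. Of the genes tied to oligoadenylates, Akap7, which has a phosphodiesterase domain, had a log2 fold change of -0.54 ± 0.19 with LPS in 3F (adjusted p = 0.043, edgeR), a call lost with the replicate block (adjusted p = 0.0552) and without any single 3F library other than resting replicate 1. Abce1, at 0.02 ± 0.13 with LPS in WT, was not called in any genotype by edgeR, DESeq2 or limma. Pde12, a phosphodiesterase that degrades oligoadenylates, was at -0.06 ± 0.14 with LPS in WT and at -0.35 ± 0.14 in KO (adjusted p = 0.0688, edgeR), and in KO it was called by DESeq2 at -0.40, by limma with weights at -0.45 and without resting KO replicate 3 at -0.50. The family genes Oas1d, Oas1e, Oas1f and Oas1h had 0 to 6 counts in each library and were not tested. Of 9 other sensors of nucleic acid and their partners, 7 rose with LPS in WT, where 16.3% of all genes did. Tmem173 (STING) was called lower at -0.63 ± 0.23 (adjusted p = 0.0474, edgeR), and this call was lost with the replicate block (adjusted p = 0.0548) and without any single WT library other than resting replicate 1, at -0.36 without resting WT replicate 2. The largest changes were those of Zbp1, a sensor of nucleic acid that triggers cell death, at 6.36 ± 1.16, and of the RNA helicases Ddx58 (RIG-I) at 3.76 ± 0.62 and Dhx58 (LGP2) at 3.41 ± 0.62. Of 11 genes of the interferon signal 9 rose, among them the transcription factor Irf7 at 5.36 ± 0.96 and the interferon signal inhibitor Usp18 at 5.18 ± 0.92. Their median log2 fold changes in WT were 2.23 for the sensors and 1.37 for the interferon genes, against 3.67 for the OAS family. In 3F 7 of the sensors and 8 of the interferon genes rose, against 17.2% of all genes. In KO 3 of each list rose, against 14.3% of all genes. Without resting KO replicate 3 the KO counts were 7 and 9, in a fit that called 4040 of all genes in either direction.

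In resting KO against WT cells 6 of the 9 sensors and 5 of the 11 interferon genes were called higher by edgeR, against 5.12% of all genes. Irf7 was at 4.79 ± 0.94, and at 1.92 ± 0.38 without resting KO replicate 3 (adjusted p = 0.00734, edgeR). Zbp1 was at 5.54 ± 1.16, and at 2.33 ± 0.52 without that library (adjusted p = 0.0137, edgeR). Without resting KO replicate 3 these counts were 2 and 4, and without resting WT replicate 1, or replicate 2, they were 1 and 3. When the 6 resting KO and WT libraries were fitted alone none of the 9 sensors and none of the 10 interferon genes then tested was called. That fit called 396 of all genes. With LPS edgeR and DESeq2 called 0 of either list between KO and WT, against 4.79% of all genes, and limma with weights called 1 of each.

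Over the 18 libraries the 8 members followed each other, with Pearson's r of log2 CPM from 0.893 for Oas1b and Oas1c to 0.993 for Oas3 and Oasl2. The pair of Oas1a and Oas1g was also at 0.993, and the levels of these near-identical copies are uncertain. The genes outside the family with the highest mean r to the members were Irf7 (0.98), Isg15 (0.98), Ifi209 (0.979), Dhx58 (0.979) and Ifi47 (0.979). Without resting KO replicate 3 the pairs of members ran from 0.888 to 0.996 and the mean r of these 5 genes was 0.978 to 0.979. In the order named, these genes then ranked 2, 5, 8, 6 and 10, so which genes come first depends on that library. These are descriptions over libraries that share 6 groups, and much of each value is the step from resting to LPS.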

How the data were processed

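Directional libraries were prepared from BMDM RNA after removal of rRNA. The authors removed adapters with cutadapt 1.8.3, discarded ribosomal reads, aligned the rest to mm10 with HISAT2 2.1.0 and deposited raw counts per gene of Gencode M15 from featureCounts 1.5.3, by strand and with mapping quality of at least 50. From these counts genes were kept with filterByExpr (11357 of 21734, all 8 members among them), scaled by TMM and fitted in edgeR 4.0.16 (R 4.3.3) with a coefficient for each of 6 groups and no covariate. The 11 comparisons were two-sided, and p values were adjusted by Benjamini-Hochberg. Standard errors are the log2 fold change over the square root of F, and 95% intervals use the t distribution with the degrees of freedom of the fit. Alternatives were RLE scaling, no filter, the compared groups alone, a replicate block, limma 3.58.1 voom with library quality weights, DESeq2 1.42.0 and each library left out. The fit was tested on simulated data for resting KO against WT: 65% of 2-fold and 93% of 4-fold changes were recovered among 11233 genes, with 8 false calls. Simulated libraries were drawn independently, so none stood apart in many genes at once as resting KO replicate 3 did. These rates therefore do not describe the member calls in that comparison.

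Members, lists and motifs were chosen with earlier results of these data known. The named genes were the 8 members, up to 3 called genes of each pathway list in a comparison and the 5 genes most alike in pattern. Tmem173, S100a8, S100a9 and Ifnb1 in resting cells, and Abce1 and Pde12, were named after their values were seen. Some items chosen by this rule are not reported here. Positions come from Gencode M21 (mm10). Replicates of a group differed by more than sampling noise. Resting and LPS columns of a genotype share a letter, which the study's legends give, for other libraries of these cells, as identifier of a BMDM culture, and 3 mice of a genotype gave both states, so same-lettered libraries were taken as pairs. Of 9 such pairs 5 had a correlation of deviations from the group means over 0.1 (range 0.0283 to 0.318), and 15 of 18 libraries correlated best with their own letter. Letters do not pair mice of different genotypes. The likeness of genes without resting KO replicate 3 was added after the data were seen. With 3 libraries against 3 an exact permutation test cannot go below 0.1, so no such test was run.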

Additional observations from a re-analysis of the deposited data

How the results depend on the processing

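All 8 members stayed called in the LPS response of WT and of 3F under every alternative and without each library. For the LPS response in KO the count of 1 became 0 with the compared groups alone, 6 with a replicate block, 8 with limma weights, and 0 to 8 with 1 library left out. Of all genes, the compared groups alone called 2510 there and limma weights 6073, against 3059. For resting KO against WT the count of 7 became 0 with the compared groups alone and 4 with limma weights, and 2 to 7 with 1 library left out. For resting KO against 3F it became 0 with the compared groups alone, 5 with limma weights and 4 to 7 with 1 library left out. Of all genes, the compared groups alone called 396 against resting WT and 16 against resting 3F, and limma weights 2259 and 2916. With LPS, limma weights called 1 member between KO and WT, the compared groups alone called 4 between KO and 3F, and DESeq2 called 1 in the interaction of KO. The sign of Oas1c turned to -0.24 in resting KO against WT and to 0.39 in the interaction of KO with limma weights. With 1 library left out its values ran from -0.29 to 1.11, from -0.89 to 0.52 and, against resting 3F, from -0.15 to 1.24. The cause of these changes was not tested beyond the libraries named. Of 816 such values of single members outside the comparisons of 3F with WT, 49 lost and 25 gained a call and 5 turned sign. In those comparisons 49 of 336 turned sign and 0 were called.

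The number of genes called of all 11357 ran, over the alternatives and with 1 library left out, from 392 to 2259 for resting KO against WT (1067), from 16 to 2916 for resting KO against 3F (1464), from 180 to 1777 for KO against WT with LPS (544), from 142 to 1842 for KO against 3F with LPS (441), from 2213 to 5218 for WT (3240), from 2154 to 6073 for KO (3059) and from 2474 to 5478 for 3F (3546) in the LPS response, from 0 to 57 for the interaction of KO (1), and from 0 to 2 for 3F against WT resting (0) and with LPS (1).

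The replicate block (the culture for LPS responses and interactions, the number between genotypes) changed no count of members other than that of the LPS response in KO. Between genotypes, where numbers are only shared, deviations of same-numbered libraries correlated at -0.287 to 0.214. Low counts limit resting Oas1b, Oas1g and Oasl1.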
